A study of Mus musculus with 6 samples.

Results

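Expression of the circadian clock genes was examined in kidneys of wild type C57BL/6 mice at postnatal day 15 (P15). The set held 10 genes, chosen by symbol from the 24422 genes in the count tables: the activators Arntl (also called Bmal1) and Clock, the repressors Per1, Per2, Per3, Cry1 and Cry2, the nuclear receptor repressors Nr1d1 and Nr1d2, and the output factor Dbp. Kidneys of 3 mice whose mothers ate a diet with 220 ppm iron (control) were compared with kidneys of 3 mice whose mothers ate a diet with 2 to 6 ppm iron (iron deficient, FeD). Mothers entered their diet at 8 weeks of age and, by the labels, ate it for 1 month before mating and then until the kidneys were taken (the methods give a shorter time before mating). The 6 mice shared strain, genotype and age, and none carried a transgene. Whole kidneys were sequenced as polyadenylated RNA, so fewer cells of a type and less RNA per cell cannot be told apart. The labels and the methods give no hour of collection and no litter, and for genes that cycle over the day the diet cannot be told apart from the hour of collection or from the litter.

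The circadian clock is a feedback loop of transcription that runs in nearly every cell, the tubular epithelium included. ARNTL and CLOCK bind as a pair to E-box sequences and activate the Per, Cry, Nr1d and Dbp genes, and PER and CRY proteins then return to the nucleus and repress the pair. NR1D1 and NR1D2 (REV-ERB alpha and beta), whose ligand is heme, repress Arntl and compete with the ROR receptors for the same element, whereas DBP activates genes through D-box sequences. Arntl therefore normally peaks at the opposite time of day from Nr1d1, Dbp and Per3. In the kidney the clock is known for daily rhythms in sodium and water transport.

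Counts on genes totalled 13732173 to 20853293 per kidney. Counts were scaled by edgeR's TMM method, and levels are given as normalized counts, that is, counts at a common library size. All 10 genes had at least 126 raw reads in each kidney and were tested with 15145 genes by edgeR's quasi-likelihood test, with P values adjusted over all of them. The smallest P that an exact two-sided permutation of these 6 kidneys allows is 0.1. The labels number the kidneys without saying whether they came from separate litters, and P values measure the spread between these kidneys alone. Among the libraries, FeD kidney 2 stood apart in transcripts of the adrenal cortex, with 792 CPM (counts scaled to a fixed library total) summed over 7 markers against 8.07 to 72.3 in the other 5 kidneys. FeD kidney 3 differed from the other FeD kidneys over the whole library, lying outside both of them in 75.8% of all tested genes. Markers of the proximal tubule were present in every kidney, but 5 of 5 fell in FeD, where 23.3% of all tested genes fell. They summed to 1961 to 2140 CPM against 6173 to 6650 CPM in control kidneys. Of 6 markers of fat and muscle, only the 3 of fat (Ucp1, Adipoq and Plin1) had enough counts to be tested. All 3 fell, beside the same 23.3% of all tested genes. The muscle markers were not tested. All 6 summed to 20.1 to 24.9 CPM in FeD kidneys and 75.3 to 90.7 CPM in control kidneys. The part of either shift in the clock gene values was not tested.

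In FeD kidneys, 6 of the 10 clock genes rose at an adjusted P under 0.05 (Arntl, Per1, Per2, Cry1, Cry2 and Nr1d2), where 22.4% of all tested genes rose, and Dbp fell, where 23.3% of all tested genes fell. In either direction 45.7% of all tested genes passed. Clock, Per3 and Nr1d1 did not pass. The activator Arntl and 4 of the 5 Per and Cry repressors rose together, while the output factor Dbp fell. Per1 and Dbp passed and also changed by at least 2-fold: Per1 rose that far, as 4.34% of tested genes did, and Dbp fell that far, as 5.69% did. Control and FeD kidneys did not overlap in 7 of the 10 genes, against 58.1% of all tested genes (28.4% with FeD higher and 29.7% with FeD lower). The median log2 fold change of the set was 0.48, beside -0.0018 over all tested genes. Without FeD kidney 2 the set had 5 genes higher and 2 lower, and without FeD kidney 3 it had 6 higher and 1 lower.

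**Figure D1:**
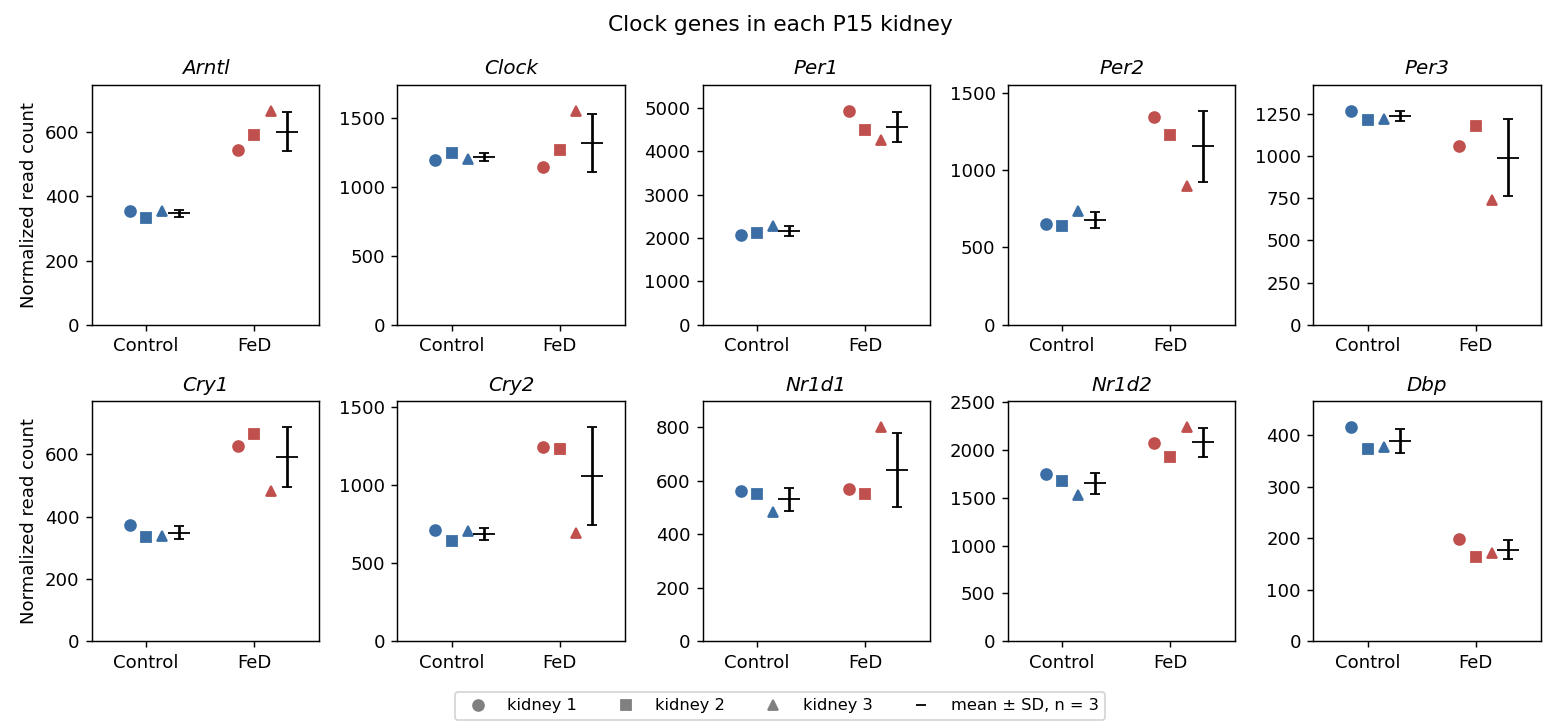
Normalized read counts (vertical axes, each from 0) of the 10 clock genes in the 3 control and 3 FeD kidneys; each symbol is a kidney, and the black bar is the mean ± SD. Dbp lay lower in every FeD kidney, at 164 to 198 against 373 to 415 in control kidneys, whereas Per1, at 4256 to 4938, lay above every control kidney.

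Arntl, the partner without which the loop stops, rose in FeD kidneys. Its normalized counts were 354, 333 and 354 in control kidneys 1 to 3 and 546, 592 and 667 in FeD kidneys 1 to 3. Every FeD kidney lay above every control kidney, and the control kidneys lay close together. The means were 347 ± 12.1 and 602 ± 61.2 (SD, n = 3), a 1.73-fold rise. On the log2 scale the change was 0.79 (standard error 0.10, edgeR adjusted P = 0.00043). Arntl spans 120350979 to 120457636 on the plus strand of chromosome 7 in mm9. No other annotated gene overlapped its exons. Clock, its DNA-binding partner (chromosome 5, 76639992 to 76733817), had 1195, 1250 and 1206 normalized counts in control kidneys and 1142, 1270 and 1555 in FeD kidneys. The groups overlapped: FeD kidney 1 lay below the control range, FeD kidney 2 just above it and FeD kidney 3 well above it. The log2 fold change of Clock was 0.12 (standard error 0.11, edgeR adjusted P = 0.39), and without FeD kidney 3 it was -0.0032 (adjusted P = 0.97).

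Per1, which responds within hours to light and hormone signals in addition to the loop, had the largest log2 fold change among the repressors. Normalized counts of Per1 were 2072, 2124 and 2278 in control kidneys and 4938, 4483 and 4256 in FeD kidneys. The lowest FeD kidney stood well above the highest control kidney. Per1 thus rose 2.11-fold between means of 2158 ± 108 and 4559 ± 348 (SD, n = 3). Its log2 fold change was 1.08 (standard error 0.08, edgeR adjusted P = 4.5e-05). Per1 lies at 68908719 to 68923462 on chromosome 11. Per2 (chromosome 1, 93312561 to 93355907), whose protein carries CRY into the repressor complex, had 655, 639 and 738 normalized counts in control kidneys and 1343, 1224 and 899 in FeD kidneys. Its groups did not overlap either, but FeD kidney 3 was nearer to the controls than to the other FeD kidneys. The log2 fold change of Per2 was 0.77 (standard error 0.14, edgeR adjusted P = 0.0034).

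Per3, the third PER gene and not required for rhythm, did not follow Per1 and Per2. Normalized counts of Per3 were 1270, 1216 and 1223 in control kidneys and 1061, 1176 and 738 in FeD kidneys. All FeD values lay under the lowest control value, with FeD kidney 3 far below the rest. The fitted log2 fold change of -0.32 (standard error 0.15) did not pass (edgeR adjusted P = 0.11). It was -0.44 (adjusted P = 0.036, edgeR) without FeD kidney 2 and -0.13 (adjusted P = 0.13) without FeD kidney 3. Per3 lies at 150377761 to 150418774 on chromosome 4.

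The cryptochromes, the strongest repressors of the ARNTL and CLOCK pair, were both higher on average in FeD kidneys. Cry1 (chromosome 10, 84594447 to 84647799) had 374, 335 and 339 normalized counts in control kidneys and 627, 665 and 482 in FeD kidneys. The groups of Cry1 were apart in all kidneys. Its means rose 1.69-fold from 349 ± 21.3 to 591 ± 96.7 (SD, n = 3), which is 0.75 on the log2 scale (standard error 0.13, edgeR adjusted P = 0.0021). Cry2 (chromosome 2, 92243803 to 92274200) had 715, 644 and 707 normalized counts in control kidneys and 1246, 1235 and 697 in FeD kidneys. FeD kidney 3 lay within the control range of Cry2, while the other FeD kidneys lay far above it. The log2 fold change of Cry2 was 0.62 (standard error 0.20, edgeR adjusted P = 0.036). The call for Cry2 rested on which kidneys were included: it was lost without FeD kidney 1 (adjusted P = 0.11), without FeD kidney 2 (adjusted P = 0.086) and without control kidney 1, 2 or 3, and it strengthened to a log2 fold change of 0.86 without FeD kidney 3 (adjusted P = 8.1e-05, edgeR). A noncoding gene on the opposite strand, D930015M05Rik, covers 4.67% of the exon bases of Cry2.

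Nr1d2 rose slightly and its paralog Nr1d1 did not pass. Nr1d2, or REV-ERB beta (chromosome 14, 19036568 to 19071641), had 1745, 1674 and 1531 normalized counts in control kidneys and 2071, 1926 and 2238 in FeD kidneys. Its groups did not overlap. The log2 fold change of Nr1d2 was 0.33 (standard error 0.08, edgeR adjusted P = 0.0083), a 1.26-fold rise. Nr1d1, or REV-ERB alpha (chromosome 11, 98629246 to 98636647), had 561, 551 and 482 normalized counts in control kidneys and 569, 551 and 800 in FeD kidneys. FeD kidney 2 lay within the control range, FeD kidney 1 lay just above it and FeD kidney 3 stood far above it. The log2 fold change of Nr1d1 was 0.27 (standard error 0.15, edgeR adjusted P = 0.17), and 0.088 without FeD kidney 3. Exons of Thra, on the opposite strand, cover 8.42% of the exon bases of Nr1d1. The strand setting of the counting is not given in the sources used here, so reads over these bases could be counted for either gene or for neither. Thra, a thyroid hormone receptor, had 2249 ± 79.0 and 2051 ± 236 normalized counts in control and FeD kidneys (log2 fold change -0.13, edgeR adjusted P = 0.22).

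Dbp, a PAR bZIP factor that passes the rhythm of the loop on to output genes, fell in FeD kidneys. Normalized counts of Dbp were 415, 373 and 376 in control kidneys and 198, 164 and 172 in FeD kidneys. No kidney of either group came near the other group. The means fell from 388 ± 23.5 to 178 ± 18.0 (SD, n = 3), so Dbp was 2.18-fold lower. In the fit its log2 fold change was -1.12 (standard error 0.11, edgeR adjusted P = 0.00017). Unlike most of the set, Dbp did not separate FeD kidney 3 from the other FeD kidneys. Dbp spans 52960458 to 52965525 on the plus strand of chromosome 7, and Sphk2 on the opposite strand shares 16.7% of its exon bases. Sphk2, a sphingosine kinase, fell by 0.32 on the log2 scale (edgeR adjusted P = 0.019), from 1279 ± 42.4 to 1027 ± 115 normalized counts. Because Sphk2 was the more abundant of the pair, its reads on shared bases could form part of the Dbp count.

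Levels per length of exon allow the genes to be set in order. In control kidneys Per1 had the highest level, at 21.4 ± 1.07 CPM per kilobase of exon (SD, n = 3), followed by Nr1d2 at 18.4 ± 1.21 and Nr1d1 at 9.52 ± 0.767. The other 7 genes lay between 6.10 (Cry2) and 7.71 (Clock), and most neighbours in that order differed by less than their spread. In FeD kidneys the level of Per1 was 45.3 ± 3.45 CPM per kilobase and that of Nr1d2 was 23.2 ± 1.75. Arntl, Nr1d1, Per2, Cry1 and Cry2 then lay between 9.38 and 11.5 CPM per kilobase, within one another's spread. Clock followed at 8.38 ± 1.34 and Per3 at 5.78 ± 1.32. Dbp, next after Clock in control kidneys at 7.37 ± 0.446 CPM per kilobase, had the lowest level in FeD kidneys, at 3.38 ± 0.341.

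**Figure D2:**
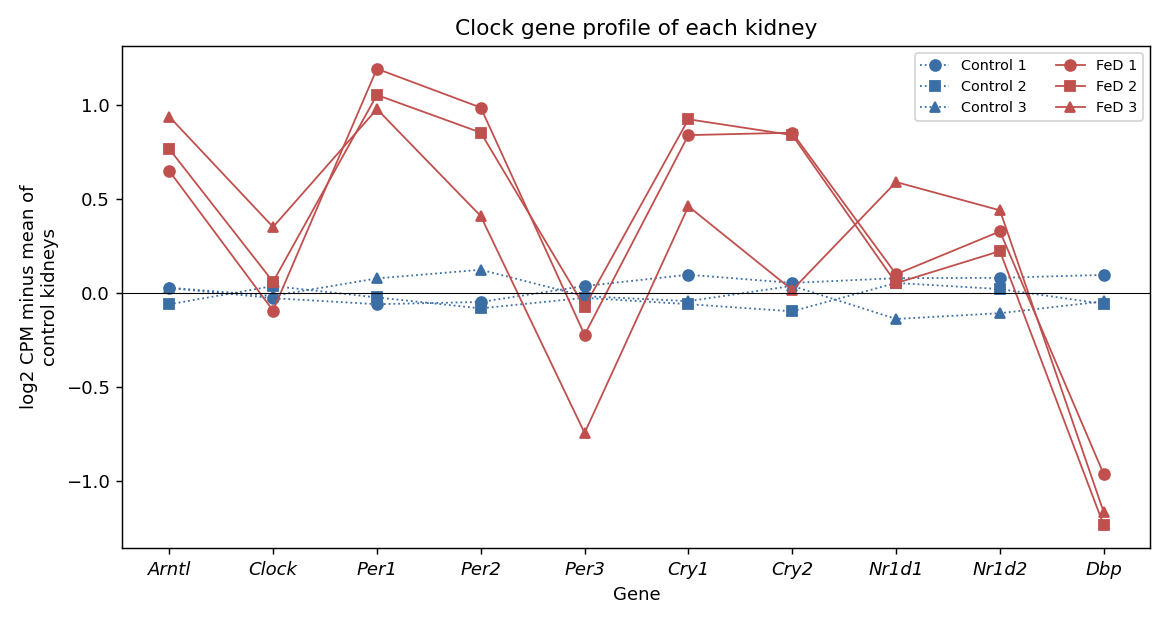
Profile of the 10 clock genes in each kidney, as log2 CPM minus the mean of the control kidneys (vertical axis); blue dotted lines are control kidneys, red lines are FeD kidneys, and lines join genes of 1 kidney. The control kidneys stay within 0.217 of one another for every gene, whereas FeD kidney 3 (red triangles) departs from FeD kidneys 1 and 2 by as much as 0.83, at Cry2.

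The clock genes varied more among FeD than among control kidneys, as did most tested genes. The widest range of any member over the 3 control kidneys was 0.217 on the log2 CPM scale, for Nr1d1, and the median range was 0.15. Over the 3 FeD kidneys the median range was 0.45 and the widest was 0.84, for Cry2. All 10 genes had a wider range in FeD than in control kidneys, which was also true of 74.5% of all tested genes. Over all tested genes the median range was 0.16 in control and 0.30 in FeD kidneys. FeD kidney 3 lay outside the other FeD kidneys in 9 of the 10 genes, against 75.8% of all tested genes. Its log2 CPM was lower than the mean of FeD kidneys 1 and 2 for Cry2 (-0.83), Per3 (-0.60), Per2 (-0.51), Cry1 (-0.42) and Per1 (-0.14). It was higher for Nr1d1 (0.51), Clock (0.37), Arntl (0.23) and Nr1d2 (0.16). The Per and Cry genes of this kidney thus lay on 1 side, and the activators and Nr1d genes lay on the other. The median distance of FeD kidney 3 from the mean of the other FeD kidneys was 0.39 over the set and 0.19 over all tested genes. The spread of members within a group, taken as the standard deviation of log2 CPM pooled over both groups, had a median percentile of 61.5 among all tested genes, and of 35.0 without FeD kidney 3.

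Ratios within a kidney do not depend on how libraries are scaled, and were used to compare genes of opposite phase. The log2 ratio of Dbp to Arntl counts was 0.23, 0.16 and 0.088 in control kidneys and -1.46, -1.85 and -1.95 in FeD kidneys. The mean thus moved by -1.92, the largest shift of the 3 ratios examined. The ratio of Per3 to Arntl was 1.84, 1.87 and 1.79 in control kidneys and 0.96, 0.99 and 0.15 in FeD kidneys. That of Nr1d1 to Arntl was 0.66, 0.73 and 0.45 in control kidneys and 0.059, -0.10 and 0.26 in FeD kidneys. All 3 ratios were lower in each FeD kidney than in any control kidney, and the distance was smallest for Nr1d1. The 3 ratios share Arntl as denominator, which itself rose by 0.79 on the log2 scale, so they are not separate comparisons. By themselves, Dbp had a log2 fold change of -1.12, Per3 of -0.32 and Nr1d1 of 0.27, and only Dbp passed.

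**Figure D3:**
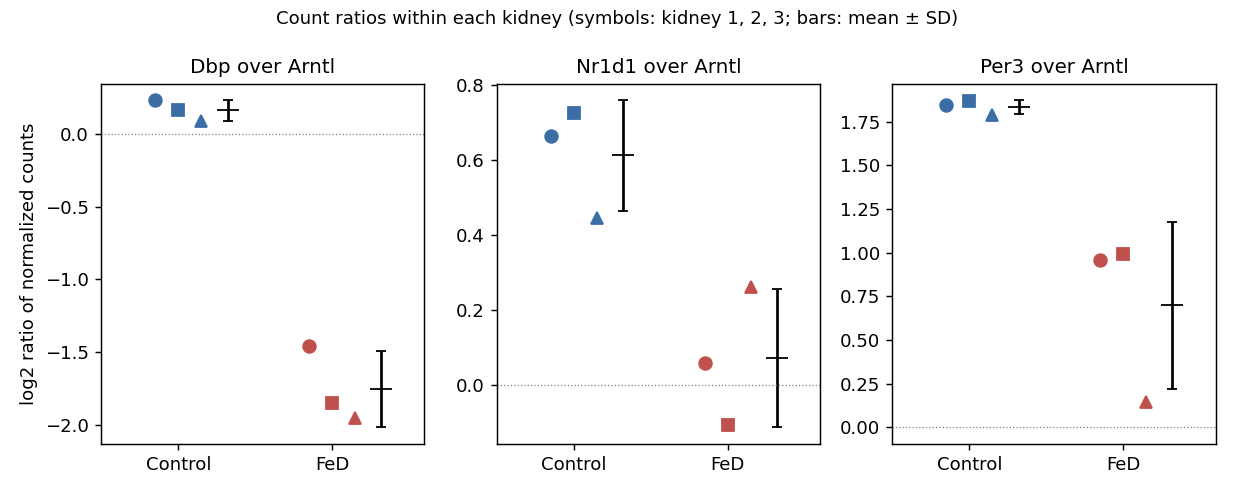
Log2 ratio of normalized counts of Dbp, Nr1d1 and Per3 to those of Arntl in each control and FeD kidney (vertical axes, scaled for each panel); symbols are kidneys 1 to 3 and bars are the mean ± SD. The Dbp ratio moved from 0.16 ± 0.071 in control to -1.76 ± 0.26 in FeD kidneys.

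Promoter sequences were searched for clock elements close to the starts of the members. Promoter windows of 250 bases before and 50 after the annotated start came from RefSeq (GRCm38.p6), in which 9 of the 10 members matched with 13 windows; Per2 did not match. Both strands were searched for the E-box CACGTG, present in 7.15% of all 32851 promoter windows, the E'-box CACGTT (4.68%), the D-box TTATGTAA (0.938%), the ROR element TAGGTCA (2.61%) and the cyclic AMP element TGACGTCA (1.79%). The sites found in the members did not overlap one another. Per1 (in 1 of its windows) and Cry1, which both rose, held an E-box, and Cry1, Cry2 and Nr1d1 held an E'-box. Arntl and Nr1d2 also rose and held neither of these. Among other genes of the loop, Ciart, Tef and Bhlhe41 held an E-box and did not pass. Per3 held 2 D-boxes, the element of DBP and its relatives. One of the windows of Arntl held a ROR element 30 bases after the start, and none of these elements was found in the windows of Clock, Nr1d2 and Dbp. A match describes the letters in these windows and not the binding of a factor. The 3 stretches that follow are shown because they hold an E-box of Per1 and Cry1, which rose, and both D-boxes of Per3, with the elements in capitals.
Per1, chr11:69098753-69098818, plus strand, E-box starting 166 bases before the start: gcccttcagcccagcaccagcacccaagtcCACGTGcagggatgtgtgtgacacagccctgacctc
Cry1, chr10:85185089-85185153, minus strand, E'-box (read on the other strand) and E-box starting 79 and 60 bases before the start: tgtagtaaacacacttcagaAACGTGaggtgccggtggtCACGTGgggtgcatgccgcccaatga
Per3, chr4:151044796-151044890, minus strand, D-boxes starting 205 and 158 bases before the start: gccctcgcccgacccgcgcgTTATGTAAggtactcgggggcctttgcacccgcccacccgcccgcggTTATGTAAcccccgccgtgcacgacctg

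Other genes of the loop were counted from 5 lists of 20 genes, all of which were tested. In FeD kidneys 9 rose and 2 fell (edgeR, adjusted over all tested genes), none of them by 2-fold, and 9 did not pass, where 45.7% of all tested genes passed in either direction (22.4% higher and 23.3% lower). Both other activators rose, by log2 fold changes of 0.84 (Npas2, a stand-in for Clock; adjusted P = 0.0034) and 0.95 (Arntl2, a paralog of Arntl; adjusted P = 0.0045). Rora, which activates Arntl through the ROR element, rose from 992, 967 and 930 to 1516, 1687 and 1744 normalized counts (log2 fold change 0.78, edgeR adjusted P = 0.00013). Rorb had a log2 fold change of 0.46 and did not pass (edgeR adjusted P = 0.19).

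Relatives of Dbp that share the D-box did not all follow it. Hlf fell, from 1464, 1685 and 1628 normalized counts in control kidneys to 1034, 1109 and 790 in FeD kidneys (log2 fold change -0.71, edgeR adjusted P = 0.0023). For Tef the log2 fold change was -0.089 (adjusted P = 0.66, edgeR), with 4575, 4294 and 2884 normalized counts in FeD kidneys and 3991 to 4332 in control kidneys. Nfil3, which represses through the D-box and so opposes Dbp, rose from 214, 200 and 222 to 459, 460 and 351 normalized counts (log2 fold change 0.99, edgeR adjusted P = 0.00057). The D-box activators Dbp and Hlf were thus lower in the kidneys in which the D-box repressor was higher. The Nfil3 promoter window holds a ROR element (in capitals, read on the other strand) 12 bases before the start, shown because Rora and the Nr1d genes act on this element.
Nfil3, chr13:52981040-52981081, minus strand: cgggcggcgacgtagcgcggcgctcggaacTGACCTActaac

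Of the E-box repressors, Bhlhe40 (DEC1), which competes with the activators and is also induced by hypoxia, rose from 1504, 1620 and 1687 to 2682, 2309 and 2438 normalized counts (log2 fold change 0.63, edgeR adjusted P = 0.00042). Bhlhe41 (DEC2), at 43.1 to 45.4 and 42.0 to 58.4 normalized counts, and Ciart, at 41.2 to 67.6 and 51.9 to 74.0, did not pass. Timeless, counted in the same list but not read here as an E-box repressor, serves DNA replication in addition to its part in the clock. It fell by 0.44 on the log2 scale (adjusted P = 0.031, edgeR). That call was lost when control kidney 1 or 2 or FeD kidney 2 or 3 was left out. Among 8 kinases and ubiquitin ligase subunits that set the life of PER and CRY proteins, 4 were higher and none lower. Of all tested genes, 22.4% were higher and 23.3% lower, and 45.7% passed in either direction. Csnk1e, a kinase of PER, rose by 0.57 on the log2 scale (adjusted P = 0.00044, edgeR). Gsk3b and Csnk1a1 had log2 fold changes of 0.31 and 0.23 (adjusted P = 0.0056 and 0.036, edgeR). The call for Csnk1a1 was lost with no filter on low counts (adjusted P = 0.056), with the replicate number as a block (adjusted P = 0.061) and in 4 of the 6 fits that left out 1 kidney.

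**Figure D4:**
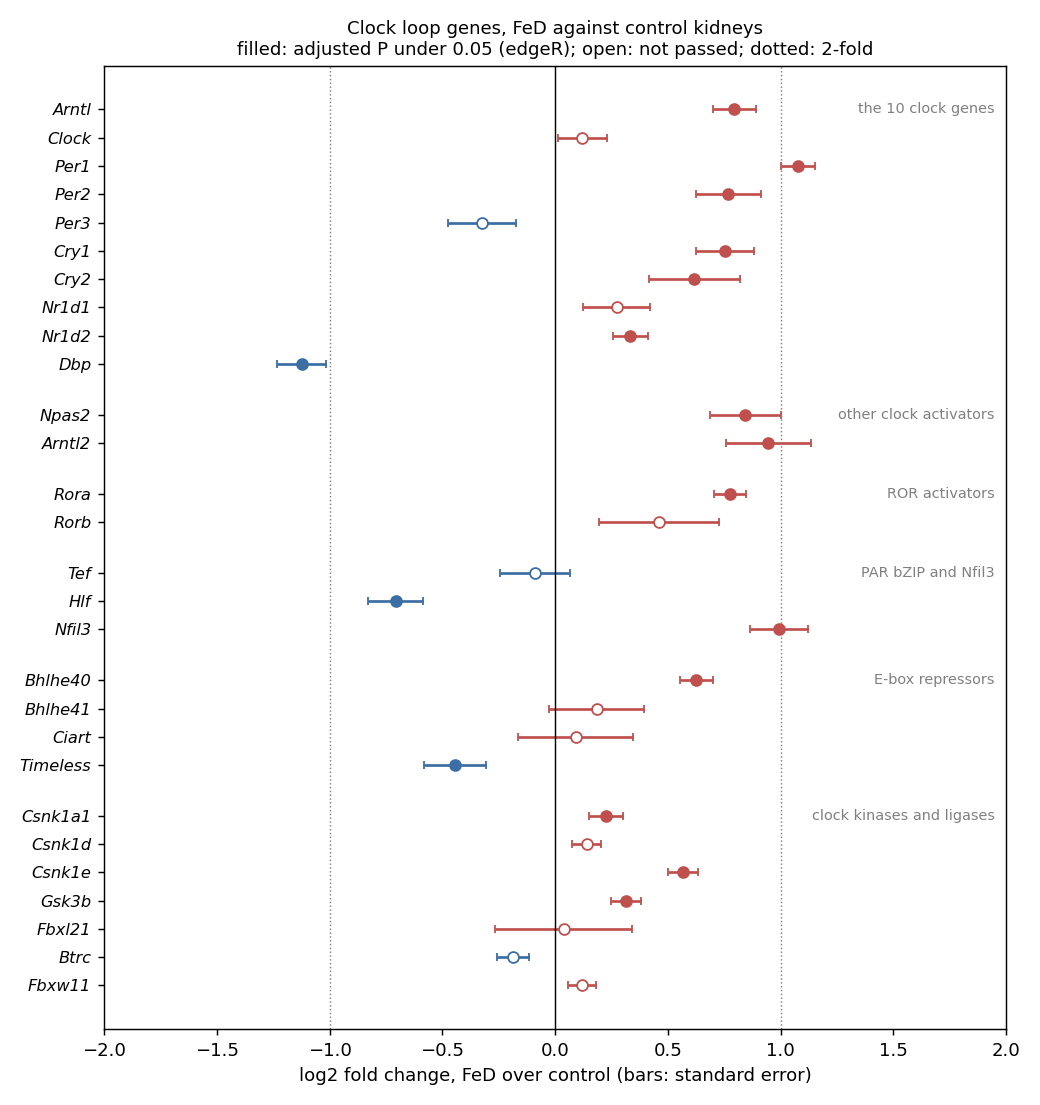
Log2 fold change of FeD over control (horizontal axis, bars are the standard error) for the 10 clock genes and other genes of the loop; filled points passed an adjusted P under 0.05 in edgeR's test, open points did not, and dotted lines mark a 2-fold change. Dbp at -1.12 and Hlf at -0.71 lie opposite to Nfil3 at 0.99 and Per1 at 1.08.

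Among 10 genes that carry the clock's rhythm in many tissues, 5 passed as higher and 1 as lower (edgeR), beside 22.4% and 23.3% of all tested genes, and the median log2 fold change was 0.29. Usp2, a deubiquitinase, had 2249 to 2534 normalized counts in control kidneys and 3220 to 4188 in FeD kidneys (log2 fold change 0.64, edgeR adjusted P = 0.0014). Nampt, which makes NAD and is an E-box target, and Klf10 rose by log2 fold changes of 0.33 and 0.70 (adjusted P = 0.0022 and 0.00033, edgeR). Por, the electron donor of cytochrome P450 enzymes and a D-box target, fell by 0.53 on the log2 scale (adjusted P = 0.0052, edgeR). Wee1 (log2 fold change -0.29), Tspan4, Lonrf3 and Pfkfb3 did not pass. The remaining genes, Tsc22d3 and Klf9, are also induced by glucocorticoids and rose by log2 fold changes of 1.32 and 1.03.

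Genes induced by signals that set peripheral clocks moved in the same kidneys. Of 10 glucocorticoid-inducible genes, 8 were higher, 7 of them by 2-fold, and none was lower (edgeR), beside 22.4% of all tested genes higher and 4.34% higher by 2-fold, and the median log2 fold change was 1.27. Fkbp5, which binds the glucocorticoid receptor complex, rose from 1099, 1037 and 954 to 6120, 5774 and 4588 normalized counts, which is 2.42 on the log2 scale (adjusted P = 9.4e-06, edgeR). Zbtb16 rose from 104, 99.6 and 73.8 to 1848, 1837 and 1566. Mt1 and Mt2 of the same list did not pass, with log2 fold changes of -0.26 and 0.21. Per1 is itself a known glucocorticoid target. No hormone level is given for these mice, and the part of glucocorticoids in the rise of Per1 was not tested. Without FeD kidney 2, which held the adrenal transcripts, the log2 fold change of Per1 was 1.11 (adjusted P = 0.00013, edgeR). That fit shows only that the rise did not rest on this kidney. It cannot speak to glucocorticoids, because Fkbp5 and Zbtb16 were high in FeD kidneys 1 and 3 too. Of 8 genes of the heat and cold response, 2 were higher and 4 lower, beside 22.4% and 23.3% of all tested genes. The lower call for Hspa1b (adjusted P = 0.047, edgeR) was lost in 5 of the 6 fits that left out 1 kidney, and that for Hsp90aa1 in 2. The cold-induced RNA-binding genes Cirbp and Rbm3 rose by log2 fold changes of 0.95 and 0.82 (adjusted P = 0.0037 and 0.00075, edgeR). The heat shock gene Hsph1 fell from 2977, 3047 and 3184 to 814, 717 and 1455 normalized counts (log2 fold change -1.62, edgeR adjusted P = 0.00095). In Cirbp, at 3303, 3545 and 2029 normalized counts, and in Hsph1, FeD kidney 3 lay nearest to the control kidneys. In Dnajb1 and, by a small margin, Hsp90aa1 of the same list it lay farthest from them. Among the clock genes, FeD kidney 3 lay nearest to the control kidneys for Per1, Per2, Cry1 and Cry2. For Arntl, Clock, Per3, Nr1d1 and Nr1d2 it lay farthest from them. This kidney lay outside the other FeD kidneys in 75.8% of all tested genes, and a link between these genes was not tested.

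Apart from the exon overlaps on opposite strands given for Cry2, Nr1d1 and Dbp, none of the windows of 100 bases in the members' transcripts recurred in another protein-coding gene. Arntl, Per1, Per2, Cry1, Nr1d2 and Dbp passed the adjusted P under each of 14 other settings. Of these, 6 left out 1 kidney and 1 left out control kidney 1 with FeD kidney 2, the libraries highest in summed adrenal markers. In control kidney 1 that sum was mostly Hsd3b1, and Cyp11b1 had 0 reads. The cell type marker calls that follow stand beside 22.4% of all tested genes higher and 23.3% lower. Of 5 macrophage markers 3 were higher and 1 lower, and they summed to 82.7 to 93.4 CPM in FeD and 95.2 to 98.3 CPM in control kidneys. Most of that sum was Csf1r, the marker that was lower, whereas Cd68 rose 2.17-fold and Itgam 2.59-fold. The 4 podocyte markers, 1 of them higher, summed to 525 to 741 and 634 to 691 CPM. The 5 of stroma and endothelium, 1 higher and 2 lower, summed to 821 to 1005 and 973 to 1070 CPM, and the 5 of the loop, distal tubule and collecting duct, 1 higher and 2 lower, to 6271 to 9947 and 8096 to 9385 CPM. Of the blood markers the 4 globin genes were listed at 0 in all kidneys, and Alas2 had 92.4 to 413 and 336 to 761 normalized counts. The part of these cell types in the clock gene values was not tested.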

How the data were processed

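The authors isolated total RNA from 6 kidneys, selected polyadenylated RNA, prepared TruSeq libraries and, per the labels, processed the reads with CASAVA 1.8.2, Trimmomatic, TopHat2 2.0.11 (mm9) and HTSeq. The deposited values are raw counts of uniquely mapped reads per gene and kidney, neither normalized nor pooled; the annotation, counting mode and strand setting are not given in the sources used here. Groups and replicate numbers came from the sample titles. In R 4.3.3, edgeR 4.0.16 tested the 15145 genes kept by filterByExpr, after TMM scaling, with the quasi-likelihood test and Benjamini-Hochberg adjustment. The standard error is the log2 fold change over the square root of F. Profiles used log2 CPM with a prior count of 2, ratios a prior count of 0.5. The procedure was run on simulated counts with the same spread in both groups, unlike these kidneys, so that run does not measure its error here. The common biological coefficient of variation was 0.128. A floor of 3 counts stood at 0.144 to 0.218 CPM and covers counting error only, since reads carried no molecular identifiers; nothing says that the kidneys were of separate litters.

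The members and gene lists were chosen with earlier results of these data known. The rule for named genes was the 10 members, the other clock lists by counts with values for those that passed, genes whose exons overlap a member, and the 5 genes most and least like Dbp. Positions and exon lengths came from GENCODE's NCBIM37 (mm9) annotation. Alternatives were DESeq2 1.42.0 (the tool the paper names) or its size factors, library size alone, other filters, limma 3.58.1 voom, the replicate number as a block and each kidney left out in turn; leaving out control kidney 1 with FeD kidney 2 was added after seeing the data. Some genes of the lists are counted but not reported by name here.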

Additional observations from a re-analysis of the deposited data

How the results depend on the processing

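Of 140 values of the 10 clock genes under 14 other settings, 131 kept their direction and side of the threshold. Cry2 lost its call under limma voom (log2 fold change 0.55, adjusted P = 0.064) and without control kidney 1 and FeD kidney 2 together (0.53, adjusted P = 0.15). With 1 kidney left out, the log2 fold change of Cry2 ranged from 0.50 to 0.86, that of Per3 from -0.44 to -0.13 and that of Clock from -0.0032 to 0.24. The number of members lower ranged from 1 to 2, that of genes lower in the 8 other lists (46 genes, 7 lower) from 4 to 8, that lower by 2-fold (1) from 1 to 2, and the median spread percentile from 35.0 to 66.6. Without control kidney 1 and FeD kidney 2 the lists had 3 genes lower. Signs changed with 1 kidney left out for Tef (-0.20 to 0.10), Ciart (-0.093 to 0.25), Fbxl21 (-0.26 to 0.20), Pfkfb3 (-0.014 to 0.22), Mt1 (-0.51 to 0.083) and Mt2 (-0.16 to 0.59), for Fbxl21 under voom (-0.029), and without both kidneys for Fbxl21 (-0.35) and Mt2 (-0.23), where Mt1 had -0.58; none of these genes had passed the threshold; the cause was not tested. The replicate numbers do not name shared animals, and deviations of kidneys with the same number correlated at -0.16, 0.000096 and -0.035. With the replicate number as a block, 6 members were higher and 1 lower; Cry2 had an adjusted P of 0.039, Per3 of 0.070. DESeq2 also had 6 higher and 1 lower.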

Other observations

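The profile of Dbp over the 6 kidneys was set beside those of 12932 tested genes whose normalized counts averaged 50 or more. Pearson's r of log2 CPM with Dbp was highest for Espl1, the separase that parts sister chromatids (r = 0.998), Zdhhc7, the mitotic kinesins Kif4 and Kif11, and Lime1. The log2 fold changes of Espl1, Kif4 and Kif11 in FeD kidneys were -2.33, -2.06 and -1.68 (adjusted P = 0.00017, 0.00013 and 0.00016, edgeR). Correlations were lowest for Uhrf1bp1l, Rgs4, F2r, Zim1 and Tmem87b, and Rgs4, Zim1 and F2r had log2 fold changes of 2.28, 3.05 and 1.31 (adjusted P = 3.3e-05, 3.9e-05 and 3.7e-05, edgeR). These correlations describe 6 kidneys that differ in diet and share that difference for every gene. Within the set, r with Dbp was -0.98 for Arntl, -0.97 for Per1, -0.90 for Cry1, -0.86 for Per2, -0.85 for Nr1d2, -0.67 for Cry2, -0.56 for Nr1d1, -0.46 for Clock and 0.65 for Per3.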
